A study of Mus musculus with 10 samples.

Results

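Among the 16600 regions of the ATAC-seq comparison, 1624 overlapped by at least 1 bp a peak in both *Arid1a* cKO libraries and a peak in neither WT library. They were chosen on the peak lists of the same libraries that gave the reads, so their reads are described here and not tested. The mice were Arid1a fl/fl C57BL/6 animals aged 8 to 10 weeks. AAV2-GFP (called WT) or AAV2-Cre (called cKO, given as Arid1a del/del) was put into the vitreous 2 weeks before an optic nerve crush, and both groups received the crush. Retinal cells positive for Thy1.2 and negative for the dead-cell dye DAPI were sorted 3 days later from 4 to 5 pooled retinas per library. ATAC-seq covered 2 libraries per group and RNA-seq 3 other libraries per group, 4 and 6 in all. AAV2 reaches other retinal cells besides retinal ganglion cells (RGCs), and Cre was under the CMV promoter, which is not restricted to 1 cell type. The WT mice carried the floxed alleles and the virus, but no Cre.

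ATAC-seq marks DNA that the Tn5 transposase can reach, and a peak is a stretch where its insertions pile up. ARID1A is a DNA-binding subunit of the SWI/SNF (BAF) complex, which uses ATP to slide or evict nucleosomes. The complex is known for keeping enhancers open. Most accessible promoters of mammalian genes lie in CpG islands and are open in many cell types, whereas enhancers lie inside and between genes and are more often open in only some cell types.

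The peaks in both cKO libraries lay on few gene starts. In the RefSeq promoter set (GRCm38.p6, 250 bases before to 50 after each start), the 300-base windows of 18 genes were overlapped, and in 13 of these the start itself lay inside. The bases before the start are shown for 6 of the 18, since these windows were under both cKO peaks for at least 100 bases or belong to the protein-coding gene with the largest read difference at its start. Each is written 5′ to 3′ on the strand of the gene, and capitals mark the bases under both cKO peaks.
Gm454 (a long non-coding RNA gene, minus strand, chr5:138207347-138207596): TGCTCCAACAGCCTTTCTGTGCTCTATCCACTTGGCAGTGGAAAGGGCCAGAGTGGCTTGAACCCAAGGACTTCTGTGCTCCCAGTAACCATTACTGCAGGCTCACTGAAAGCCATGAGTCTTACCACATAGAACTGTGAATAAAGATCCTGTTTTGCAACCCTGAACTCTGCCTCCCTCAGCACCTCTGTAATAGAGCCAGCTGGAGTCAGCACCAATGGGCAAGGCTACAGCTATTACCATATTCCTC
Gm12665 (a long non-coding RNA gene, minus strand, chr11:24926060-24926309): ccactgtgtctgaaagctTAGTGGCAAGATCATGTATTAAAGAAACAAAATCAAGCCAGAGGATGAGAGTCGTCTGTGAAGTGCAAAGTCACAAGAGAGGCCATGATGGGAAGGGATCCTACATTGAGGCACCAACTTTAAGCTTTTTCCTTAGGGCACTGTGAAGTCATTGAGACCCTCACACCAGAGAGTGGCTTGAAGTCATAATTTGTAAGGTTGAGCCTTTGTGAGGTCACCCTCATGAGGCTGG
Lincred2 (a long non-coding RNA gene, plus strand, chr4:119050756-119051005): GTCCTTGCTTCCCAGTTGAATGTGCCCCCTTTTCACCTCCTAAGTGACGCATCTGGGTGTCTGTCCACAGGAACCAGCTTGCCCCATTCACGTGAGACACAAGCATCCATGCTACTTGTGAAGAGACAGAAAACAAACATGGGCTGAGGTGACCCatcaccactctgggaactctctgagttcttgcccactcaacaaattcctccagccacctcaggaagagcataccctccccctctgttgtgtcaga
Gm41435 (a long non-coding RNA gene, plus strand, chr16:25089068-25089317): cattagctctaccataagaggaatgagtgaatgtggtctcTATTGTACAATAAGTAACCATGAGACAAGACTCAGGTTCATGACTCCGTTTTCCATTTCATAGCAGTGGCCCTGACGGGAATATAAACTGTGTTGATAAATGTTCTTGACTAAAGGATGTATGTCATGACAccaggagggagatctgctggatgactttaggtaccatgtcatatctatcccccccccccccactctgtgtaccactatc
Serpina1f (a serine protease inhibitor family gene, minus strand, chr12:103695530-103695779): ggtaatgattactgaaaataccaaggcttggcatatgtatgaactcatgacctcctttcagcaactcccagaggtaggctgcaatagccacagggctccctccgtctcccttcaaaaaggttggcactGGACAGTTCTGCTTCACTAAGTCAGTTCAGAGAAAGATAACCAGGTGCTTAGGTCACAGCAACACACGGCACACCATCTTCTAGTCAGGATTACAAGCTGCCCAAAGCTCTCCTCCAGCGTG
Mefv (pyrin, an inflammasome sensor, minus strand, chr16:3718125-3718374): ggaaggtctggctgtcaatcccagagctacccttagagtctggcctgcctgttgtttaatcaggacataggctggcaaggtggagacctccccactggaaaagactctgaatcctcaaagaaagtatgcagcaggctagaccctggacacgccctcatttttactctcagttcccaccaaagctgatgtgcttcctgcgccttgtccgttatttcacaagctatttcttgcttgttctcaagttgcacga
The *Gm454* sequence was covered whole by both peaks, while none of the *Mefv* bases was under both. In the region at *Mefv* the peaks of the 2 libraries shared 11 bp.

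These windows were poor in CpG. Over the 18 windows the median GC content was 50.5% (42.3% to 77.0%) and the median number of CpG was 3.5, against 63.3% and 24 in the 6459 windows overlapped by regions with peaks in both WT and neither cKO library (called WT-only below). Over all 27025 windows these medians were 52.7% and 7, nearer to the 18. Of the 18 genes 8 were protein coding, against 5704 of the 6459. At least 10 CpG were held by 4 of the 18 windows (22.2%), by 94.7% of the WT-only windows and by 43.9% of all 27025 windows. The GC box GGGCGG, searched on both strands, was in 4 of the 18 (22.2%), 73.2% of the WT-only windows and 35.9% of all windows. TGANTCA, the motif of AP-1, was found in 1 of the 18 (5.56%) and in 7.93% of all windows, and TAATCC, bound by the photoreceptor factors OTX2 and CRX, in 2 (11.1%) and 7.16%. With 18 windows, each of these shares rests on few genes.

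Their genes had little or no RNA in the 6 RNA-seq libraries. A TPM value could be matched for 12 of the 18, of which *Gm454*, *Gm12665*, *Serpina1f* and *Ugt1a1* were listed at 0 TPM (a transcript level per length, brought to one total in each library) in all 6. The highest of the rest was *Card10*, a CARD scaffold of NF-kappaB signalling, with 3.88, 12.1 and 4.52 TPM in the libraries labelled WT and 4.77, 3.32 and 3.98 TPM in those labelled cKO. *Mefv* had 1.02, 1.96 and 1.04 TPM against 0.662, 0.113 and 0.454 TPM. *Mefv* RNA was thus lower in the 3 libraries labelled cKO (log2 fold change -0.73, standard error 0.31, limma adjusted p = 0.270). Its region had 13.9 normalized reads in cKO against 0.877 in WT. The rule favours more reads in cKO, so this direction is not set against that of the RNA.

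Of the 1005 miRNA hairpins with a sequence, 2 lay inside a cKO-only region and 1 lay 82 bp beyond the region with the most cKO reads. Their mature sequences follow with the seed (bases 2 to 8) in capitals, since the seed sets which RNAs a miRNA can pair with.
mmu-miR-6968-5p (chr17:26935472-26935493, plus strand): aGGGGGCGagggggcccugugg
mmu-miR-6968-3p (chr17:26935518-26935539, plus strand): aCAAGCGCugucuccccuccag
mmu-miR-5616-5p (chr4:149537863-149537883, plus strand): uUUCCUCUcaucacaaguuga
mmu-miR-5616-3p (chr4:149537901-149537922, plus strand): aACUUGUGaugaggugagacag
mmu-miR-1967 (chr8:124022688-124022710, plus strand): uGAGGAUCcuggggagaagaugc
None of the 5 shared a seed with another. *Mir5616* lies in *Ctnnbip1*, an inhibitor of beta-catenin, in chr4:149537515-149538406 (18.6 reads in cKO and 5.90 in WT). *Mir1967* lies in *Urb2*, in chr8:124022192-124022795 (8.06 and 1.88 reads). All 3 miRNA genes were listed at 0 TPM in all 6 libraries, and small RNAs were not measured.

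The cKO-only regions were weak. The deposited value of a region is 1 number per group, the log2 of the mean normalized reads, so there is no spread between the 2 libraries of a group and the depth of the libraries is not known. The median cKO-only region had 9.19 reads in cKO (quartiles 7.73 and 11, range 1.78 to 193) and 2.89 in WT (quartiles 1.64 and 4.41). WT-only regions had a median of 27.7 reads in WT. More than 16 reads were reached in cKO by 59 of the 1624 regions (3.63%), and in WT by 78.6% of the 9145 WT-only regions. Regions with a peak in exactly 1 WT and exactly 1 cKO library (called 1+1 regions, n = 4526) had medians of 6.92 reads in WT and 6.41 in cKO. In cKO reads the cKO-only regions therefore lay nearer to the 1+1 regions than the WT-only regions did in WT reads.

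The difference of the group values (cKO minus WT, log2) had a median of 1.68 and ran from -0.50 to 4.88. It was over 1 in 1292 cKO-only regions (79.6%), beside 8.67% of all 16600 regions, but the rule used this contrast and nothing is read from it. In 215 regions (13.2%) the WT value was the lowest in the table (0.877 reads), which only 3 other regions shared. Reads in cKO ran from 1.78 to 15.1 in these 215. Although no WT peak was called in them, 9 regions had more reads in WT than in cKO. The largest such gap was near *Ndufc1*, a subunit of respiratory complex I (6.23 reads in cKO and 8.82 in WT). The others were in *Glce*, *Rnf150*, *Tamm41*, *Adra1b*, *Tnfrsf1b* and the *Ugt1a* cluster, or near *Gm8609* and *Dctn6*.

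**Figure D1:**
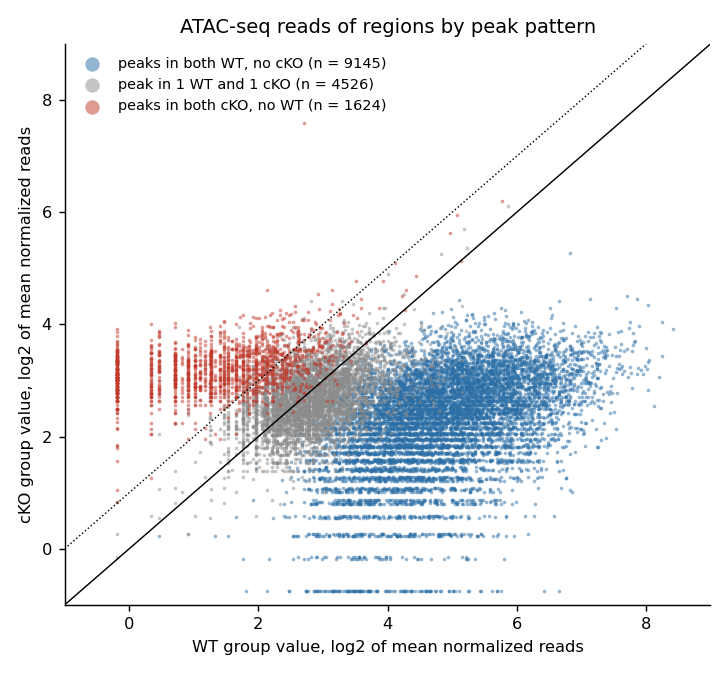
Each point is a region, placed by its WT group value (horizontal axis) and its cKO group value (vertical axis), both as the log2 of mean normalized reads, for the 1624 cKO-only, 9145 WT-only and 4526 1+1 regions. The solid line marks equal values and the dotted line a difference of 1. Most cKO-only points lie above the dotted line at low values, with a column at the lowest WT value of -0.19.

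By place, the difference had a median of 1.71 at gene ends (n = 151), 1.71 elsewhere in a gene (n = 796), 1.66 between genes (n = 672) and 0.84 on unplaced contigs (n = 5). It was smaller in wider regions, with medians of 1.80, 1.79, 1.67 and 1.52 from the narrowest to the widest of 4 equal groups. Reads went up with width in both groups, from 7.65 to 11.9 in cKO and from 2.13 to 4.29 in WT. In the 177 regions whose nearest WT peak lay within 1 kb the median difference was 1.60, and in the 609 with the nearest WT peak 10 to 100 kb away it was 1.72. At the edge of the rule, the 5 regions closest to a WT peak (2 to 11 bp away) had differences from 0 to 2.75. The 5 regions outside it with the smallest WT overlap (221 to 225 bp) had differences from 0.04 to 0.97.

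A few regions stood far above the others in reads. The highest was chr17:26934880-26935390 inside *Phf1*, a partner of Polycomb repressive complex 2, with 193 reads in cKO and 6.54 in WT. It also had the largest difference, 4.88. Here the peak of the first cKO library covered 332 bp, that of the second 271 bp, and they shared 92 bp. The next were chr9:123930077-123931032, 1370 bp from *Gm51701* (73.5 and 54.6 reads), chr1:88211915-88212829 at the start of *Ugt1a1* (61.8 and 33.6) and chr13:119610278-119611487 at an end of *Tmem267* (49.5 and 31.3). Then came chr1:88213111-88213597, with 35.0 and 35.3 reads, also in the *Ugt1a* cluster of UDP-glucuronosyltransferases, whose genes share their last exons. A set of 4 regions on the unplaced contig JH584304.1 had 24.6 to 34.3 reads in cKO and 15.2 to 21.7 in WT. The 10 were completed by chr1:183299155-183299426 in *Aida* (27.3 and 11.4), and the region on the *Gm454* start shown above tied with the last of them (24.6 and 4.41). Of these 10 regions, all but those in *Phf1* and *Aida* had differences below 1 and at least 15.2 reads in WT. The *Gm454* region, with a difference of 2.48, did not.

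The largest differences came from regions with hardly any WT reads. After *Phf1*, the next 9 were all at the lowest WT value and had 11.9 to 15.1 reads in cKO. They lay in *Gm51900* (4.11), in *2610035D17Rik* (4.05), at the start of *Mefv* (3.99) and on the tRNA gene *n-TSgga1* (3.90). The others were in *Rp1*, a protein of the photoreceptor outer segment axoneme (3.87), in *Vps26c* and *Gm31323* (3.84), in *Babam2* (3.83), in *Itpr2*, an inositol trisphosphate receptor of the endoplasmic reticulum (3.78), and in *Rab27a*, a small GTPase of vesicle transport (3.76).

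cKO-only regions were narrow, and their 2 peaks were often set apart from each other. The median width was 487 bp (quartiles 398 and 601, range 224 to 2478), against 757 bp (577 and 980) for WT-only and 512 bp for 1+1 regions. A region spans all its peaks, so width depends on both peaks and their offset. The peaks of the 2 cKO libraries overlapped each other in all 1624 regions, by a median of 175.5 bp, which was 65.3% of the shorter peak. An overlap of at least 1 bp was also present in every WT-only and 1+1 region, so its presence is not a trait of cKO-only regions. In WT-only regions the 2 WT peaks shared a median of 411 bp, or 97.4% of the shorter one, and in 1+1 regions 181 bp, or 66.3%. Less than 50% of the shorter peak was shared in 37.9% of cKO-only, 9.17% of WT-only and 37.4% of 1+1 regions. The centres of the peaks lay a median of 146 bp apart in cKO-only, 109 bp in WT-only and 161 bp in 1+1 regions. By these measures the cKO-only regions were close to the 1+1 regions, in which the peaks come from libraries of different groups. The 2 peaks shared a single base in 7 regions, among them those in *Wdfy4* and *Gm41323* and nearest to *Card10*, *Vmn1r192* and *Gm11500*.

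**Figure D2:**
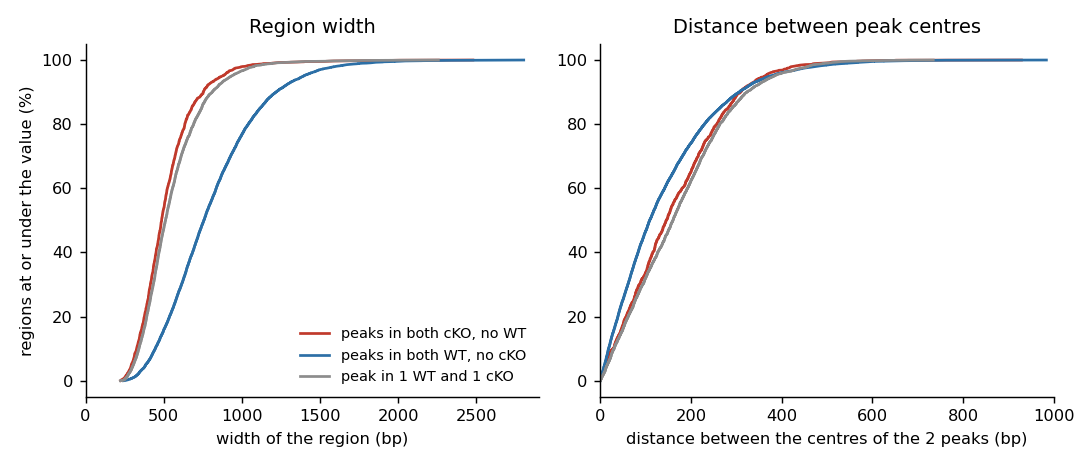
The curves give the percentage of regions at or under each width (left, bp) and at or under each distance between the centres of the 2 peaks (right, bp). The cKO-only curve runs close to the 1+1 curve in both panels, with a median width of 487 bp against 512 bp, while WT-only regions were wider (757 bp).

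The whole peak lists put these counts in scale. The cKO libraries held 55902 and 68317 peaks, and the cKO-only regions took 2.91% and 2.38% of them. The WT libraries held 76522 and 42265 peaks, and WT-only regions took 12.1% and 21.8%. Median peak widths were 276 and 292 bp in cKO and 328 and 348 bp in WT. The part of these library differences in the counts of regions was not tested.

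cKO-only regions were mostly away from gene ends. Both ends of each gene were searched over 1000 bp, because the gene table has no strand. Within this window lay 151 regions (9.30%, 95% Wilson interval 7.98 to 10.8), while 796 were in the rest of a gene body (49.0%, 46.6 to 51.4) and 672 between genes (41.4%, 39.0 to 43.8). For WT-only regions the shares were 71.4%, 19.4% and 9.19%, with an interval of 70.4 to 72.3 at gene ends. For 1+1 regions they were 12.1%, 47.8% and 40.0%, with 11.2 to 13.1 at gene ends. These intervals cover counting error only, and neighbouring regions are not independent. Taking only the centre base, 8.03% of cKO-only regions were at gene ends (6.80 to 9.45), 49.97% were elsewhere in genes (47.5 to 52.4) and 42.0% were between genes (39.6 to 44.4). Of all bases on the chromosomes, 6.01%, 42.1% and 51.9% fall in these classes. The place of cKO-only centres was thus nearer to that of all bases than to that of WT-only centres (68.9% at gene ends). It was not the same as that of all bases, whose share lay outside the interval in each class. More centres were at gene ends and elsewhere in genes, and fewer between genes.

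**Figure D3:**
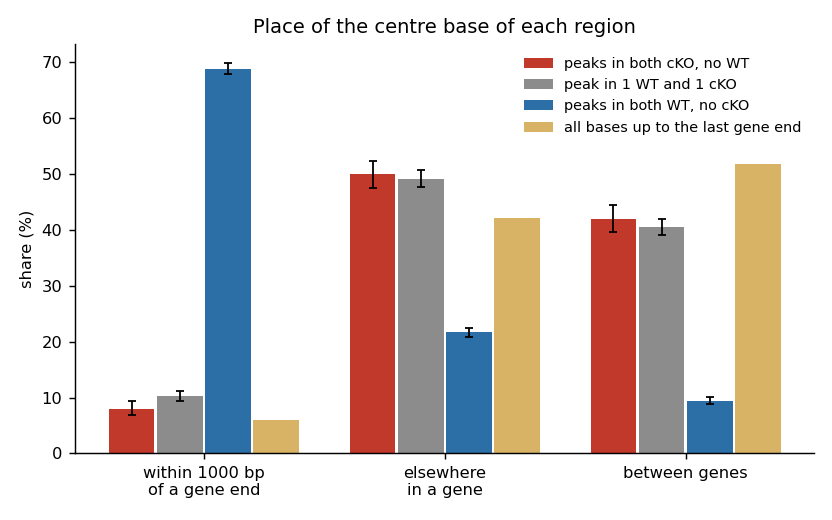
Bars give the share (%) of region centres at a gene end (1000 bp window), in the rest of the gene body and in no gene for the 3 region classes, with 95% Wilson intervals, and the share of all chromosome bases up to the last gene end. cKO-only centres (8.03%, 49.97% and 42.0%) lie close to the 1+1 centres. They are nearer to all bases than WT-only centres are, which are mostly at gene ends (68.9%), but fewer of them than of all bases are in no gene.

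Start sites with a known strand gave the same picture. Within 1000 bp of such a start lay 45 cKO-only regions (2.77%, 2.08 to 3.69), against 62.6% of WT-only (61.6 to 63.6) and 6.19% of 1+1 regions. The median distance to a start was 29370 bp for cKO-only and 0 bp for WT-only regions. Whether a region lies in an exon or an intron was not determined, since the gene table gives gene bodies only.

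The regions were spread over the autosomes and scarce on chromosome X. The autosomes had 0.544 (chromosome 10) to 0.796 (chromosome 11) cKO-only regions per Mb, and neighbours were a median of 879964 bp apart. Only 14 pairs of neighbours lay within 10 kb of each other. Chromosome X held 5 of the 1624 regions (0.308%, 0.132 to 0.719), against 243 WT-only regions (2.66%, 2.35 to 3.01) and 15 1+1 regions (0.331%, 0.201 to 0.546). The cKO peak lists as a whole also had few peaks on X, 150 and 262, against 1155 and 419 in WT. The part of this in the number of cKO-only regions on X was not tested. Of the 5 widest cKO-only regions, 3 were on X, of 2009, 1943 and 1901 bp. The one of 1943 bp, chrX:87260265-87262207, lay in *Il1rapl1*, a synaptic organiser (6.54 reads in cKO and 0.877 in WT). The widest of all was chr6:65298274-65300751, of 2478 bp, 27368 bp from *Gm8479*. Chromosome Y held none.

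A gene body was overlapped by 908 cKO-only regions (55.9%), which gave 917 host genes, 695 of them protein coding and 198 long non-coding RNA genes. For the other 716 regions the nearest gene was taken, a median of 13634 bp away and within 10 kb in 40.5%. Host and nearest genes together numbered 1587. More than 1 region lay in 71 host genes and 3 lay in 7 of them. These were *Ntm*, a cell adhesion protein of neurons, *Cdh13* (T-cadherin), *Ctnna2* (the catenin alpha of neurons), *Maml2* (a Notch coactivator), *Hivep3*, *Rnf220* and *Thada*.

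Host genes were long. Their median length was 79.9 kb, and 43.8% exceeded 100 kb, against a median of 5.94 kb for all 49997 RefSeq genes with a position. Host and nearest genes together had a median of 33.7 kb, beside 21.8 kb for those of WT-only and 29.7 kb for those of 1+1 regions. Of RefSeq genes over 300 kb, 154 of 590 (26.1%) held a cKO-only region, while of those under 10 kb 75 of 29735 (0.252%) did. A long gene offers more bases in which a region can fall, so shares of gene families have to be read beside their lengths. Of the 78 genes of synaptic adhesion (contactins, neurexins, neuroligins, IgLON and related families), 15 were hosts (19.2%), and the median length of the list was 166 kb. Of 23 *Ptpr* phosphatases 4 were hosts (17.4%, median length 148 kb), and of 36 phosphodiesterases and adenylyl cyclases 7 (19.4%, 104 kb). Sodium, potassium and calcium channels had 15 hosts of 143 (10.5%, 42.5 kb). At the other end, 2 of 1528 olfactory, vomeronasal and taste receptor genes were hosts (0.131%, 0.951 kb), and 212 of 24098 predicted Gm and Rik genes (0.880%, 2.97 kb). All RefSeq genes together gave 1.83%.

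Of the 1587 genes, 1307 could be matched to the TPM table by symbol. Host genes had a median of 7.76 TPM over the 6 libraries and nearest genes 0.0912 TPM, beside 0.207 TPM for all RefSeq genes. Host and nearest genes together had 3.40 TPM, those of WT-only regions 19.3 TPM and those of 1+1 regions 2.85 TPM. All 6 libraries were listed at 0 for 8.54% of the host genes and 42.3% of the nearest genes. The host genes with the most RNA were *Sag* (arrestin of rods), *Tecr* (an enzyme of very long fatty acid synthesis), *Slc1a3* (the glutamate transporter GLAST of glia), *Ttyh1* and *S100a16*. Then came *Pfkp* (phosphofructokinase of platelets), *Camk2d* (a calcium-calmodulin kinase), *Cadm1* (an adhesion protein), *Tmem222* and *Rorb* (a nuclear receptor of retinal development), from 3376 TPM for *Sag* to 272 TPM for *Rorb* as means over the 6 libraries. TPM is scaled for transcript length, so these levels can be set beside each other.

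The RNA libraries differed in the RNA of cell type markers, and *Arid1a* RNA was not lower in the label cKO. *Arid1a* had 18.8, 11.7 and 14.1 TPM in the libraries labelled WT and 18.8, 27.9 and 25 TPM in those labelled cKO, with a log2 fold change of 0.66 ± 0.28 (standard error; limma, adjusted p = 0.274). By immunostaining, the paper reported less ARID1A protein in RGCs after AAV2-Cre, which is a measure of protein and not of RNA. As *Arid1a* RNA alone does not show the deletion, RNA directions are given for libraries labelled WT or cKO. The summed TPM of 17 rod markers was 16199 to 22527 in the label WT and 33680 to 61647 in the label cKO, and the groups did not overlap for 16 of them, all higher in the label cKO. T cell markers summed to 1247 to 3580 against 318 to 758 TPM, with 10 of 16 apart and lower in the label cKO, and myeloid markers to 2460 to 3997 against 1116 to 1540 TPM, with 6 of 16 apart and lower. B cell markers summed to 8668 to 54451 against 2307 to 9244 TPM, ranges that overlap, with 5 of 8 apart and lower. Cone markers summed to 2989 to 3810 against 5255 to 8514 TPM, with 9 of 11 apart and higher in the label cKO, and amacrine and horizontal cell markers to 461 to 680 against 965 to 1817 TPM, with 4 of 14 apart and higher. The sum of 20 RGC markers was 258 to 355 and 384 to 443 TPM, with 6 of 20 apart and higher in the label cKO and 0 apart and lower. These sums were well below those of the rods. Of the 20, 2 were under 1 TPM in all 6 libraries, among them the factor *Pou4f2*, listed at 0 in 5 of them. *Thy1*, the sort marker, had 51.9 to 88.5 and 94.4 to 129 TPM. In such bulk samples fewer cells of a type and less RNA per cell cannot be told apart.

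RNA of the host and nearest genes was compared by limma on log2(TPM + 1), fitted to all 17555 genes with at least 1 TPM in at least 3 of the 6 libraries. Of the 1587 genes 768 passed this filter. None of the 768 had an adjusted p under 0.05, beside 0.0057% of all genes tested that were called higher (1 gene) and 0% called lower in the label cKO. The lowest adjusted p was 0.0856, for *Ets1*. At an unadjusted p under 0.05, 115 genes (14.97%) were higher and 50 (6.51%) lower in the label cKO, beside 11.9% and 6.45% of all genes. With scaling by the median of ratios, 85 genes (11.1%) were higher and 74 (9.65%) lower, beside 7.56% and 9.53% of all genes, so among all genes the lower ones then outnumbered the higher ones. The 3 libraries of each label did not overlap for 173 genes that were higher (22.5%) and 51 that were lower (6.64%), beside 18.7% and 7.18% of all genes. The median log2 fold change was 0.21, against 0.16 over all genes tested. With scaling by the median of ratios these became 0.06 and 0.01, so the gap between them stayed at 0.05. Under both scalings the shares of lower genes were near the background, and those of higher genes were somewhat above it. This was not particular to cKO-only regions. Without that scaling, host and nearest genes of 1+1 regions (1840 tested) had 14.6% higher and 6.09% lower at an unadjusted p under 0.05. Their groups did not overlap in 20.8% (higher) and 6.74% (lower), and their median was 0.18.

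Gene length moved with this result. Among all genes tested, the median log2 fold change went from 0.05 under 10 kb (n = 4724) to 0.17 at 30 to 100 kb (n = 4027) and 0.48 over 300 kb (n = 487). Genes holding a cKO-only region had medians of -0.22 under 10 kb (n = 12), 0.16 at 10 to 30 kb (n = 86), 0.08 at 30 to 100 kb (n = 159), 0.20 at 100 to 300 kb (n = 198) and 0.52 over 300 kb (n = 134). These hosts are also counted among all genes of their length. Over 300 kb, 35.8% of the hosts had a higher value at an unadjusted p under 0.05, beside 30.6% of all genes of that length. At 100 to 300 kb the shares were 15.2% and 17.3%, at 30 to 100 kb 7.55% and 11.9%, at 10 to 30 kb 4.65% and 9.39%, and under 10 kb 8.33% and 8.32%. The share of hosts was thus above that of all genes over 300 kb, below it in the 3 classes from 10 to 300 kb and near it under 10 kb. The marker sums given above moved between the same libraries, and their part in this was not tested.

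**Figure D4:**
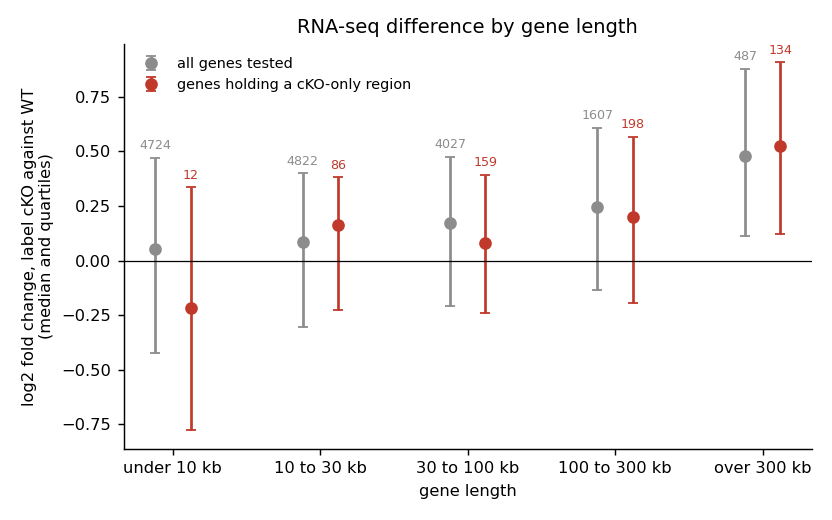
Points are median log2 fold changes on the log2(TPM + 1) scale (label cKO against WT) by gene length, with bars from the lower to the upper quartile and the number of genes above, for all genes tested and for genes holding a cKO-only region. The medians are highest over 300 kb in both series, 0.48 and 0.52, and the hosts' median is lower at 30 to 100 kb (0.08) than at 10 to 30 kb (0.16). The bars of the 2 series overlap in each class.

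Among the 20 genes with the lowest p whose groups did not overlap, 17 were higher and 3 lower in the label cKO. Their adjusted p was 0.124 from limma, except for *Ets1* at 0.0856. The exact two-sided permutation test of 3 libraries against 3 gave p = 0.1 for each, the smallest it can give. Choosing genes whose groups do not overlap fixed this value in advance, so it adds nothing to the limma result. The log2 fold changes below are on the log2(TPM + 1) scale, on which low TPM values give too small a change.

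Ion channels and their partners were among the higher ones. *Cacnb2*, the beta subunit of voltage-gated calcium channels, had 22.3, 18.4 and 24.2 TPM in the label WT and 73.1, 77.8 and 65.8 TPM in the label cKO (log2 fold change 1.70, standard error 0.21). The sodium channel gene *Scn3a* had 7.91, 4.22 and 3.88 TPM against 24.2, 21.6 and 14.6 TPM (1.76, standard error 0.35). *Scn8a*, the main sodium channel of mature axon initial segments, had 11.3, 10.9 and 12.6 TPM against 27.5, 31.6 and 25.8 TPM (1.22, standard error 0.22). For these 3 genes each library labelled cKO lay well above each labelled WT. *Unc80*, a partner of the sodium leak channel, had 39.4, 27.9 and 38.3 TPM against 87.9, 85.2 and 89.5 TPM (1.31, standard error 0.22). The region in *Cacnb2*, chr2:14642432-14643028, had 11.3 reads in cKO and 5.28 in WT, and that in *Unc80*, chr1:66543405-66544803, had 4.72 and 2.01. Those in *Scn3a* (chr2:65533005-65533405, 6.82 reads in cKO) and *Scn8a* (chr15:100884344-100884792, 10.4 reads) were at the lowest WT value.

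Genes of membrane traffic, the cytoskeleton and adhesion gave a further set. *Dnm3*, a dynamin of synaptic membrane fission, had 52.0, 47.1 and 52.3 TPM in the label WT and 138, 135 and 113 TPM in the label cKO (1.33, standard error 0.19). *Syne1* (nesprin-1, which ties the nucleus to the cytoskeleton) had 19.9, 15.5 and 17.3 TPM against 41.9, 59.8 and 39.8 TPM (1.36, standard error 0.25). The GTPase-activating proteins *Arhgap24* (24.0, 25.1 and 21.1 against 62.4, 58.8 and 46.2 TPM) and *Stard13* (6.62, 5.46 and 6.46 against 19.8, 22.4 and 13.9 TPM) were alike in this. *Stard13* held 2 regions, chr5:151121501-151122215 (18.0 reads in cKO and 5.03 in WT) and chr5:151122530-151122997 (9.38 and 5.39). *Cadm2*, a synaptic adhesion gene, had 51.1, 51.4 and 72.4 TPM against 108, 121 and 138 TPM (1.07, standard error 0.23). *Gas7*, *Prune2*, *Lmbr1* and *Pdzph1* had log2 fold changes of 1.28, 1.01, 1.00 and 1.67, and the cadherin *Cdh18*, 13674 bp from its region, 1.45.

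A nuclear receptor, a splicing factor and *Sag* completed the higher set. *Esrrg*, an orphan nuclear receptor, had 32.5, 21.8 and 23.6 TPM against 73.2, 100 and 52.6 TPM (1.47, standard error 0.30). *Rbfox1*, a splicing factor of neurons 3864 bp from its region, had 14.8, 7.13 and 8.55 TPM against 38.4, 36.1 and 24.2 TPM (1.64, standard error 0.34). *Sag* had 1628, 1193 and 2124 TPM against 3203, 5944 and 6163 TPM (1.61, standard error 0.36), and its region 9.78 reads in cKO and 2.64 in WT. *Rp1*, not among the 20, which held the region with a read difference of 3.87 and had another nearby, had 28.6, 24.0 and 45.1 TPM against 56.4, 130 and 115 TPM (1.56, standard error 0.39, limma adjusted p = 0.137). The rod genes *Sag* and *Rp1* moved in the direction of the other rod markers, all 17 of which had a log2 fold change above 0 and a median of 1.35.

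The 3 lower genes are known from immune cells. *Ets1*, a transcription factor of lymphocytes and endothelium, had 61.9, 61.2 and 45.5 TPM in the label WT and 11.6, 7.21 and 8.43 TPM in the label cKO (log2 fold change -2.52, standard error 0.27). Its region, chr9:32664718-32665241, had 7.73 reads in cKO and 2.38 in WT. The rule favours more reads in cKO, so nothing is read from setting these reads beside the RNA. *Pik3ap1*, an adaptor of B cell receptor signalling, had 24.0, 30.2 and 44.6 TPM against 13.5, 8.25 and 12.1 TPM (-1.45, standard error 0.32). *Fas*, a death receptor 4205 bp from its region, had 10.7, 7.86 and 10.99 TPM against 4.04, 2.71 and 3.77 TPM (-1.27, standard error 0.28). None of the T cell or myeloid markers was a host or nearest gene, and of the B cell markers only *Pax5* was, with at most 0.309 TPM in any library. The marker sums of T cells and myeloid cells were lower in each library labelled cKO than in any labelled WT, those of B cells overlapped, and their part in these values was not tested.

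**Figure D5:**
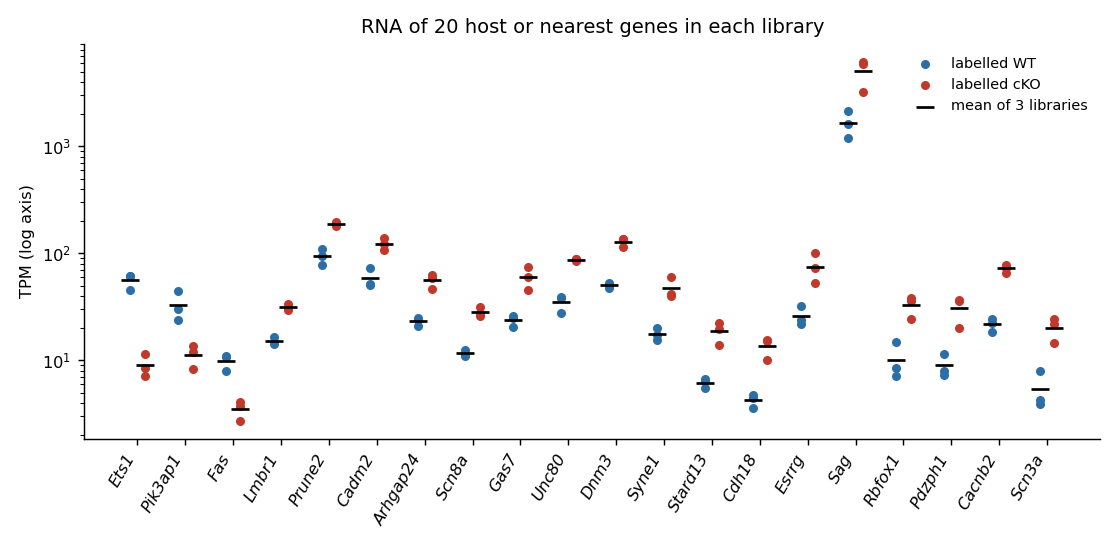
Points are the TPM (log axis) of each of the 3 libraries labelled WT and 3 labelled cKO for the 20 host or nearest genes with the lowest p whose groups did not overlap, ordered by log2 fold change, and black dashes are means. The 3 genes on the left (*Ets1*, *Pik3ap1* and *Fas*) are lower in the label cKO and the other 17 are higher.

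By family, synaptic adhesion genes had 11 of 15 hosts tested, all 11 with a value above 0, 9 of them at an unadjusted p under 0.05, and a median log2 fold change of 1.07. The share of all genes higher at that p was 11.9%. The 68 genes of the whole list had a median of 0.64, and all genes 0.16. Each whole list, here and below, includes its own host or nearest genes. The hosts in this list had a median length of 966 kb, and over all genes above 300 kb the median was 0.48, with 30.6% higher at that p. Beside *Cadm2*, they included *Cntn4* (22.8, 24.7 and 20.1 against 61.9, 59.5 and 35.3 TPM), *Tenm2*, a teneurin (17.6, 19.7 and 20.7 against 47.8, 88.9 and 27.9 TPM), and *Lrrtm3* (8.95, 8.70 and 8.29 against 28.0, 23.0 and 13.6 TPM). These 3 were picked with their values known. *Ntm*, with 3 regions, had 36.2, 51.6 and 31.4 against 81.0, 80.6 and 63.4 TPM (0.92, standard error 0.26). Channels had 14 genes tested, 11 above and 3 below 0, with a median of 0.82, and 0.60 over the 98 genes of the whole list. *Kcnj8*, a potassium channel of pericytes and smooth muscle, was among those below, with 7.08, 7.23 and 16.04 against 2.87, 1.36 and 4.08 TPM (picked with its values known). All 4 *Ptpr* hosts were above 0 (median 0.98, whole list 0.53), and 3 of them had an unadjusted p under 0.05. These 4 also had a median length of 966 kb, and *Ptprd* is in the synaptic adhesion list too, so the 2 lists are not separate results.

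In the remaining lists the phosphodiesterases and adenylyl cyclases had 6 of 7 genes above 0 (median 0.64, whole list 0.59), the glutamate, GABA and glycine receptors 3 of 4 (0.77, whole list 0.80) and the cadherins 3 of 4 (0.55, whole list 0.41). Axon guidance genes had 2 tested, both above 0 (0.62, whole list -0.03). Solute carriers were split, 7 above and 7 below (0.20, whole list 0.13). Zinc finger Zfp genes had 10 of 13 above 0 (0.08, whole list 0.30), and predicted Gm and Rik genes 30 of 44 (0.28, whole list 0.39). Of the 12 olfactory, vomeronasal and taste receptor genes none passed the filter on TPM. None of the members of any list passed the adjusted threshold.

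Genes of the BAF complex and of retinal cell types gave small numbers. Host or nearest genes were 3 of 28 BAF (10.7%), 2 of 17 rod (11.8%), 2 of 11 cone (18.2%) and 2 of 13 bipolar cell genes (15.4%), beside 3.17% of all RefSeq genes. The median lengths of these lists were 31.6, 14.5, 14.6 and 22.9 kb. Of RefSeq genes of 10 to 30 kb 2.94% were host or nearest genes, and of those of 30 to 100 kb 5.45%. With 2 or 3 genes per list, nothing is read from these shares. Of the BAF genes, *Arid2* and *Bcl7c* held a region and *Ss18* was the nearest gene to one, 22532 bp away. *Arid2*, a subunit of the PBAF form, had 8.59, 7.54 and 12.3 TPM in the label WT and 8.83, 12.1 and 12.8 TPM in the label cKO, and the groups overlapped. *Bcl7c* (-0.32, standard error 0.56) and *Ss18* (0.12, standard error 0.21) overlapped too, and each changed sign under another setting. Cone genes were *Pde6c* with a region inside (0.77) and *Cnga3* with one 8513 bp away (0.87), and bipolar cell genes were *Prkca* (0.36) and *Vsx1* (0.08, with a region 980 bp away), of which the last 2 changed sign when a library was left out. *Slc1a3* of Mueller glia held chr15:8701368-8701676 (-0.29, standard error 0.52, above 0 without the first library labelled cKO). No gene of the RGC, amacrine and horizontal, endothelial and pericyte, or erythrocyte lists was a host or nearest gene.

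Genes with several regions, or with the largest read differences, did not move together. Of the 7 with 3 regions, *Ntm* and *Ctnna2* (0.78, standard error 0.31) were higher in the label cKO at an unadjusted p under 0.05. *Hivep3* (0.16), *Rnf220* (0.22), *Maml2* (-0.32), *Cdh13* (-0.51) and *Thada* (-0.56) were not past it, and *Hivep3*, *Rnf220* and *Cdh13* changed sign when a library was left out. Of genes with 2 regions, *Dlg2*, the PSD-93 scaffold of synapses, had a log2 fold change of 1.02 (standard error 0.27) and *Ptprt* 1.06 (0.35). *Phf1*, around the region with the most cKO reads, had 47.9, 120 and 79.5 TPM against 66.2, 60.5 and 73.8 TPM (-0.21, standard error 0.34, but 0.11 without the second library labelled WT). *Babam2* was at -0.67 (standard error 0.24), *Itpr2* at -0.53 (0.31), *2610035D17Rik* at -0.50 (0.34), *Rab27a* at -0.46 (0.39) and *Vps26c* at -0.09 (0.23), while *Il1rapl1* was at 1.24 (0.43). *Vps26c* changed sign when a library was left out. At gene ends, where a region could lie on a start, 57 of 161 genes were tested, with a median of 0.13, 5 higher (8.77%) and 9 lower (15.8%) at an unadjusted p under 0.05, beside 11.9% and 6.45% of all genes.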

How the data were processed

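Per the labels and the study's methods, the authors aligned ATAC-seq reads to GRCm38 with Bowtie2 2.3.5.1, and their processing notes also name MACS2 2.2.5. They deposited a peak list per library (positions alone) and a DiffBind table of 16600 regions, which gives 1 value per region and group, the log2 of its mean normalized reads. In each region the listed start is the start of a peak. The authors quantified RNA-seq with Salmon 1.0.0 and tximport and deposited TPM for 53974 genes. The sequencing depth of neither assay is known from these files. Columns of fold, p-value and FDR for regions, and the table of DESeq2 1.26.0 fold changes and p-values, hold the authors' own comparisons and were not used.

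Peaks and regions were overlapped in Python 3.11.15 (numpy 2.4.6, pandas 2.3.3), with genes placed by the RefSeq table of GRCm38.p6. A host gene overlapped the region by at least 1 bp, and otherwise the nearest gene was taken. Of 49997 RefSeq genes 38565 were matched to a TPM row, 378 of them by a synonym. TPM values were compared with limma 3.58.1 (R 4.3.3) on log2(TPM + 1) with a trend, over genes of at least 1 TPM in at least 3 libraries, with Benjamini-Hochberg adjustment over all 17555 genes and a threshold of 0.05. A count test could not be run on TPM. Nothing states that libraries of a group came from separate cohorts, so p-values measure the spread between these libraries. Deviations of same-numbered RNA-seq libraries of the 2 labels correlated at 0.334, 0.101 and 0.425 across genes, with the pairing taken from the label numbers. WT replicate 1 and cKO replicate 2 correlated at 0.193, above the second same-numbered pair. The other pairs of unlike number ran from -0.386 to -4.24e-05. Whether the libraries are paired is thus not settled, and the replicate block was an alternative. Scripts were tested on simulated data. Figures were drawn with matplotlib 3.10.9.

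The regions, lists and tests were chosen with earlier results of these data known. Named regions are the 10 with the highest cKO value, the 10 with the largest difference, the 5 widest, 5 of those with the smallest peak overlap and those nearest the edge of the rule. Named genes are their hosts, the 20 with the lowest p whose groups do not overlap, the 10 with the most regions, the 10 with the highest TPM, and members of the marker lists, of which some are not reported here. Others are marked as picked with their values known, or stand in a list. Some lists are gene families by symbol. Alternatives were a stricter overlap, other gene end windows, protein-coding genes only, another pseudocount, other filters, median-of-ratios scaling, limma without a trend, the replicate block, and leaving out each library. No genome sequence was used here.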

Additional observations from a re-analysis of the deposited data

How the results depend on the processing

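No host or nearest gene was called higher or lower under any alternative run, including each library left out; the lowest adjusted p of the 58 genes compared was 0.0585 (limma), and 46 of the 58 kept their sign. Asking each cKO peak to cover at least 50% of a region left 1075 regions, with a median width of 427 bp and a median read difference of 1.74. With gene end windows of 500 bp 6.71% of regions lay at a gene end, and with 3000 bp 21.2%, 41.9% elsewhere in a gene and 36.6% between genes. With protein-coding genes only the shares were 4.68%, 42.8% and 52.2%. The median log2 fold change of host and nearest genes was 0.10 with no filter on TPM, 0.058 with median-of-ratios scaling (0.013 for all genes) and 0.32 for hosts over 100 kb, an alternative chosen after seeing the data. Genes lower at an unadjusted p under 0.05 numbered 33 with a mean TPM of at least 5 and 33 for hosts alone. Over all genes tested, limma without a trend called 4 higher, and the replicate block called 1 lower. The replicate block changed no other call. No paired analysis was possible because each ATAC-seq group has 1 value, so the pairing was run on RNA-seq alone. The cause of these shifts was not tested.

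With each library left out in turn, the regions numbered 1624 to 1732 and the median read difference was 1.62 to 1.68. No region of the comparison had a peak in a single library alone. Leaving out a cKO ATAC-seq library therefore could not change the 1624 regions, and only leaving out a WT library could add some. The median log2 fold change was 0.085 (without WT replicate 1) to 0.30 (without WT replicate 2). Genes higher at an unadjusted p under 0.05 numbered 66 to 125, and 66 without cKO replicate 2 and 76 without cKO replicate 1. Lower ones numbered 26 to 52, lowest without cKO replicate 2. Those whose groups do not overlap numbered 250 to 349, most without cKO replicate 3. Over all genes, 0 to 1 were called higher and 0 to 1 lower. The call of the 1 higher gene was lost without each of the 3 cKO replicates.

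Signs turned for 12 genes. With median-of-ratios scaling *Ss18* was at -0.044 and *Vsx1* at -0.054. With each RNA-seq library left out in turn, the log2 fold change ran from -0.90 to 0.19 for *Bcl7c*, -1.05 to 0.039 for *Cdh13*, -0.12 to 0.39 for *Hivep3*, -0.55 to 0.11 for *Phf1*, -0.34 to 1.02 for *Prkca* and -0.057 to 0.37 for *Rnf220*. It ran from -0.76 to 0.041 for *Slc1a3*, -0.30 to 0.20 for *Tmem222*, -0.40 to 0.27 for *Ttyh1*, -0.21 to 0.054 for *Vps26c* and -0.18 to 0.44 for *Vsx1*. ATAC-seq group values could not be recomputed without a library, so only the choice of regions could change there, and only through the WT libraries. Group values without spread, unknown depth and 3 libraries per label limit what can be called.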
